A study of Mus musculus with 4 samples.

Results

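The hypoxia response and glycolysis genes described here are 37 genes picked by symbol from the 20193 genes with a symbol in an expression table of C2C12 cells, a mouse myoblast line. They comprise 17 glycolytic enzymes, from hexokinase to lactate dehydrogenase, and 20 other hypoxia genes. The latter are glucose and lactate transporters, oxygen sensors, other targets of the hypoxia-inducible factor HIF, and Hif1a, which encodes a subunit of HIF. All 37 were measured, each by 1 probe set. Each gene is called by the symbol in the table, so pyruvate kinase M stands as Pkm2 and the oxidase now named Ero1a as Ero1l.

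The Myolinc cells were a polyclonal C2C12 line carrying the long noncoding RNA Myolinc in the plasmid pcDNA3.1/Zeo(+), and the empty vector cells carried the same plasmid without insert. Both were transfected with Lipofectamine, selected with Zeocin and cultured in high-glucose growth medium with 20% serum under 5% CO2. The labels name no low-oxygen treatment. Each group had 2 Affymetrix arrays, called biological replicates, but separate transfections or selections are not named, so the insert and the particular line cannot be told apart. A p-value here therefore covers the array-to-array spread alone, part of which may be technical. The level of Myolinc itself was not analysed here.

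HIF is a pair of proteins, an unstable alpha subunit such as HIF-1α and the stable partner ARNT. In well-oxygenated cells prolyl hydroxylases, the enzymes encoded by Egln1 to Egln3, mark the alpha subunit for destruction through the VHL ligase, and in low oxygen it survives, enters the nucleus and switches on genes through the short DNA core written ACGTG or GCGTG. These targets raise glucose uptake and glycolysis, hold pyruvate back from the mitochondria, export lactate, clear mitochondria and call in blood vessels. Several glycolytic steps are served by more than 1 gene, and the muscle forms among them (Pfkm, Pgam2, Eno3) come on as myoblasts mature.

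The promoters of some genes called as changed are shown first, because the HIF core is the sequence through which hypoxia genes are known to be switched on. They are the 300-base RefSeq windows (build GRCm38.p6) around the most upstream annotated start of the 4 genes that fell with the smallest adjusted p and of the 1 gene that rose, Pfkp, printed 5′ to 3′ on the strand of the gene, and the capitals mark ACGTG or GCGTG on either strand (CACGT or CACGC on the printed strand). The windows lie at chr7:138909457-138909756 (minus strand) for Bnip3, chr2:71872974-71873273 (plus) for Pdk1, chr11:54100674-54100973 (plus) for P4ha2, chr14:45318523-45318822 (minus) for Ero1l and chr13:6648722-6649021 (minus) for Pfkp.
Bnip3: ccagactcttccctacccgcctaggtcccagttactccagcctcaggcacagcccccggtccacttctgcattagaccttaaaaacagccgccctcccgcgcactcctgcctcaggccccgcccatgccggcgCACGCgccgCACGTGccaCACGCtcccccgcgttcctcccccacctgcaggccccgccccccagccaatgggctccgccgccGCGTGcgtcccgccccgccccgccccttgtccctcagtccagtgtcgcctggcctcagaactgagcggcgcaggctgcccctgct
Pdk1: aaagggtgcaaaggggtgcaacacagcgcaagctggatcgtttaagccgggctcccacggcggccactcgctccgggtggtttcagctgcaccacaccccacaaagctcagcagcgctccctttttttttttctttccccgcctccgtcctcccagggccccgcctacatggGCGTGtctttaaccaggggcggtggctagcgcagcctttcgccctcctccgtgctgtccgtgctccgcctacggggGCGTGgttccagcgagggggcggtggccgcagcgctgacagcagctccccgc
P4ha2: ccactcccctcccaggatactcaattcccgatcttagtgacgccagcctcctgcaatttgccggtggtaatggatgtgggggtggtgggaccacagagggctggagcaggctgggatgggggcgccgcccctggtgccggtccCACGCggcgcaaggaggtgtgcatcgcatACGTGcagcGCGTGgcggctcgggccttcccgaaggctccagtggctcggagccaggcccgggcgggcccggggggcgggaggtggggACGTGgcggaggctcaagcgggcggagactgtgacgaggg
Ero1l: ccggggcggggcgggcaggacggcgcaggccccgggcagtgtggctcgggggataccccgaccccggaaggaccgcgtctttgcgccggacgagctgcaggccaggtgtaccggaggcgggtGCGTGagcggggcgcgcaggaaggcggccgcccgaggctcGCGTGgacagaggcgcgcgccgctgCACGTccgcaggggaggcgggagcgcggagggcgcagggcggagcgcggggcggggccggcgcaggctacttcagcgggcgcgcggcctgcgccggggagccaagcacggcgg
Pfkp: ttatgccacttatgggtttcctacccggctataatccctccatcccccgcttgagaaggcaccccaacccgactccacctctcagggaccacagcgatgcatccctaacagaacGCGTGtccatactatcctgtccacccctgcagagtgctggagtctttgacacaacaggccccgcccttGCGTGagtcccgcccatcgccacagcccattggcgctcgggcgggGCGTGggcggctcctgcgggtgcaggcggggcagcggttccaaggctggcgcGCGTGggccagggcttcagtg
Bnip3 held 5 such cores, 2 of them sharing a palindromic CACGTG that counts once per strand, P4ha2 held 4, Ero1l held 3 and Pdk1 held 2. Pfkp, which rose, held 4. A window was at hand for 35 of the 37 genes, and 26 of these (74.3%) held at least 1 core, against 51.9% of the 14934 genes of the array with a window. All 7 genes that fell held one, as did 18 of the 27 (66.7%) that did not pass the test. The 37 genes were chosen as hypoxia and glycolysis genes, and whether HIF had a part in their changes was not tested. These letters are a description of the windows and not evidence that a factor sits there.

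The comparison asked which of the 37 genes differed between the Myolinc line and empty vector cells. Bnip3 and Pdk1 fell to less than the empty vector level divided by 2, and P4ha2, Slc16a3, Ero1l, Egln1 and Pfkl fell by smaller amounts. Pfkp, a phosphofructokinase, was the 1 gene that rose. Thus 7 of 37 fell and 1 rose at an adjusted p under 0.05 in limma, where 3.96% of all 20193 genes fell and 3.97% rose. Calls in either direction made up 8 of the 37 genes, against 7.93% of those 20193 genes and 6.68% of all 28944 probe sets tested (3.35% higher, 3.33% lower). A negative log2 fold change was found for 26 of the 37 genes and for 45.2% of all genes. The 37 genes were chosen with earlier results of these data known, so setting these counts beside all genes is a description and not a test. Of the 7 that fell, 6 belonged to the 20 other hypoxia genes and 1 to the 17 glycolytic enzymes, and the Hif1a transcript itself did not pass. In RNA from whole cultures, fewer cells of a type and less RNA per cell cannot be told apart.

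**Figure D1:**
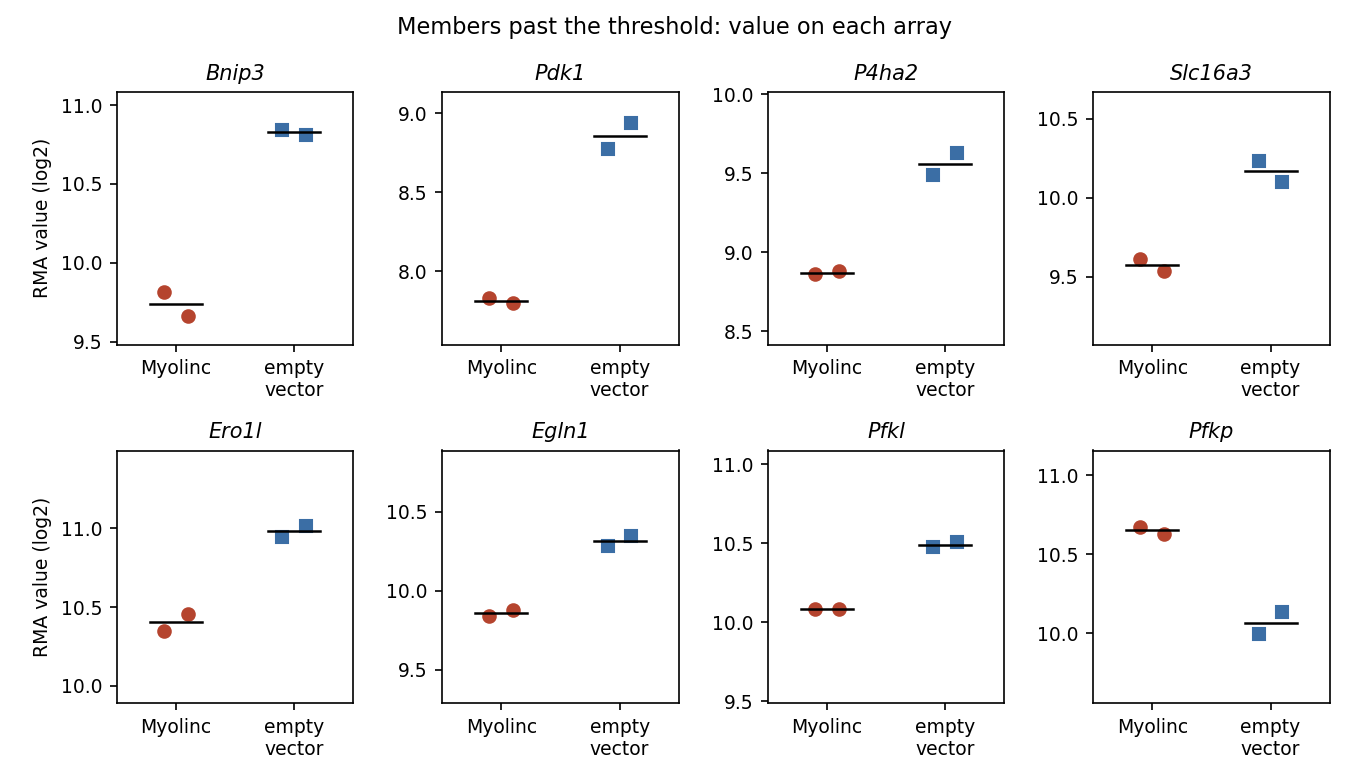
RMA value (log2 scale, vertical axis) of the 8 genes past the threshold on each array, Myolinc line (circles) left of empty vector (squares), with a line at the group mean. Every panel spans the same height. The Myolinc arrays lie below both empty vector arrays in 7 panels and above them for Pfkp.

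Values below are log2 RMA values as deposited, and changes are log2 fold changes of the Myolinc line over empty vector with limma's standard error (SE). A value of one gene is not set against that of another, since probes differ in brightness.

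Of the oxygen-sensing genes, Egln1 (PHD2), the main hydroxylase that marks HIF-1α in normal oxygen and itself a HIF target, had 9.84 and 9.88 on the Myolinc arrays, against 10.28 and 10.35 on the empty vector arrays. It fell by 0.46 on the log2 scale (SE 0.06, adjusted p = 0.035 in limma), 1.37-fold lower. Egln3 (PHD3), the most oxygen-responsive of the 3, had 8.89 and 8.96 in the Myolinc line and 9.22 and 9.15 in empty vector cells. Its arrays did not overlap, which 53.9% of all genes also showed, and its change of -0.26 (SE 0.07, adjusted p = 0.110) did not pass. Hif1a, the alpha subunit that these enzymes act on, had 11.45 and 11.48 in the Myolinc line, against 11.45 and 11.47 in empty vector cells, a change of 0.0027 with a 95% interval from -0.15 to 0.16. HIF-1α protein was not measured.

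Of the 2 genes that act on mitochondria, Bnip3, a receptor on the outer membrane that hands mitochondria to autophagy, had 9.81 and 9.66 in the Myolinc line and 10.84 and 10.81 in empty vector cells. It fell by 1.09 on the log2 scale (SE 0.08, adjusted p = 0.0153 in limma), 2.13-fold lower, the largest change among the 37. The number of its probe set, 10414269, lies among those of genes on chromosome 14 (29 of its 30 nearest numbered genes), whereas RefSeq places Bnip3 on chromosome 7. Numbers on this array otherwise run along the chromosomes, and 1.62% of 19457 genes stood out in this way. Which transcripts the probe set binds is not given in the sources used here, so a copy of the gene elsewhere cannot be told apart from Bnip3. Higd1a, a small protein of the inner membrane, had a change of -0.08 (SE 0.06), which did not pass.

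Pdk1, the kinase that switches off pyruvate dehydrogenase and so keeps pyruvate out of the citrate cycle, had 7.83 and 7.80 in the Myolinc line, against 8.77 and 8.94 in empty vector cells. It fell by 1.05 on the log2 scale (SE 0.08, adjusted p = 0.0176 in limma), 2.06-fold lower, and the gap between the groups was wider than the spread within either. Slc16a3 (MCT4), the exporter of lactate in glycolytic cells, had 9.61 and 9.53 in the Myolinc line, against 10.23 and 10.10 in empty vector cells. It fell by 0.60 (SE 0.08, adjusted p = 0.0326 in limma), 1.51-fold lower. The glucose importers Slc2a1 (GLUT1) and Slc2a3 (GLUT3) did not pass. Slc2a1 had 12.58 and 12.62 in the Myolinc line and 12.61 and 12.59 in empty vector cells, a change of 0.0046 with a 95% interval from -0.16 to 0.16. Slc2a3 had a change of 0.03 (SE 0.06) and lay below the median over probe sets, 7.27, on all 4 arrays.

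Of the 3 genes of collagen hydroxylation and oxidative folding, 2 fell, where 3.96% of all genes fell. P4ha2, a catalytic subunit of collagen prolyl 4-hydroxylase, had 8.86 and 8.88 in the Myolinc line, against 9.49 and 9.63 in empty vector cells. It fell by 0.69 on the log2 scale (SE 0.07, adjusted p = 0.0261 in limma), 1.61-fold lower. Ero1l, the oxidase that feeds disulfide bonds into proteins of the endoplasmic reticulum, had 10.35 and 10.45 in the Myolinc line, against 10.95 and 11.01 in empty vector cells. It fell by 0.58 (SE 0.07, adjusted p = 0.0308 in limma), 1.49-fold lower. P4ha1, the other hydroxylase subunit in the set, had 10.13 and 10.16 in the Myolinc line and 10.34 and 10.37 in empty vector cells, with a change of -0.21 (SE 0.06, adjusted p = 0.125) that did not pass. The difference between the changes of P4ha1 and P4ha2, a pair picked after its values were seen, was 0.48 on the log2 scale.

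Of the remaining hypoxia genes none passed. Several had arrays that did not overlap between groups, which 53.9% of all genes also had. Kdm3a, a histone demethylase that removes methyl groups from H3K9, had 8.49 and 8.67 in the Myolinc line and 9.05 and 9.20 in empty vector cells (change -0.55, SE 0.10, adjusted p = 0.0579). Mxi1, a MYC antagonist, ran the other way with 9.05 and 9.09 in the Myolinc line, against 8.69 and 8.77 in empty vector cells (change 0.35, SE 0.06, adjusted p = 0.0594). Both stood just outside the threshold, and Egln1 and Pfkl (adjusted p = 0.0371) just inside. Vegfa, the vessel growth factor, had 10.74 and 10.74 in the Myolinc line and 10.90 and 10.92 in empty vector cells, a change of -0.17 (SE 0.06, adjusted p = 0.171). Ankrd37, an ankyrin repeat gene that HIF induces, had a change of -0.35 (SE 0.10), and Ndrg1, a stress-responsive gene of differentiation, one of -0.07 (SE 0.06). The carbonic anhydrases Car9 (0.18, SE 0.09) and Car12 (0.14, SE 0.08), which buffer acid at the cell surface, and the vasodilator peptide gene Adm (0.02, SE 0.07) lay below the median over probe sets on all arrays, so a change at low expression could have been missed.

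Of the 17 glycolytic enzymes 1 rose and 1 fell, both of them phosphofructokinases, where 3.97% of all genes rose and 3.96% fell. This enzyme of the committed step is a tetramer built from the products of 3 genes. Pfkl, the liver form, had 10.08 and 10.08 in the Myolinc line and 10.47 and 10.51 in empty vector cells, and fell by 0.41 on the log2 scale (SE 0.06, adjusted p = 0.0371 in limma), 1.33-fold lower. Pfkp, the platelet form, had 10.67 and 10.63 in the Myolinc line, against 9.99 and 10.13 in empty vector cells, and rose by 0.59 (SE 0.08, adjusted p = 0.0324 in limma), 1.50-fold higher. Pfkm, the muscle form, had 10.05 and 9.93 in the Myolinc line, against 9.88 and 9.90 in empty vector cells (change 0.10, SE 0.07), which did not pass. The changes of Pfkp and Pfkl differed by 1.00 on the log2 scale. The SD of their within-array ratio was 0.03 in the Myolinc line and 0.07 in empty vector cells (n = 2 each). The pair was picked after its values were seen, so this difference is a description and not a test.

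Neither hexokinase, the enzyme that traps glucose in the cell, passed. Hk1, the widely expressed form, had 10.99 and 10.96 in the Myolinc line and 10.63 and 10.52 in empty vector cells (change 0.40, SE 0.07, adjusted p = 0.0508). Hk2, the insulin- and HIF-responsive form, had 9.59 and 9.54 in the Myolinc line, against 9.78 and 9.91 in empty vector cells (change -0.28, SE 0.07, adjusted p = 0.115). When p-values were adjusted over the 20193 genes with a symbol instead of all 28944 probe sets, Hk1 passed (adjusted p = 0.0429 in limma), as did Kdm3a (0.0496), and the counts became 2 of 37 that rose and 8 that fell, against 4.61% and 4.65% of genes. The changes of Hk1 and Hk2 differed by 0.68. Of 7 isozyme pairs examined, picked after their values were seen, every one had within-array ratios that did not overlap between groups. The exact two-sided permutation test gives 0.333 for each (0.333 also after adjustment over the pairs). This is the smallest p that 2 arrays against 2 allow, so the test could not tell the groups apart. Among single genes, 53.9% of all had groups that did not overlap. The count of pairs is a description alone, since they were chosen on these values.

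**Figure D2:**
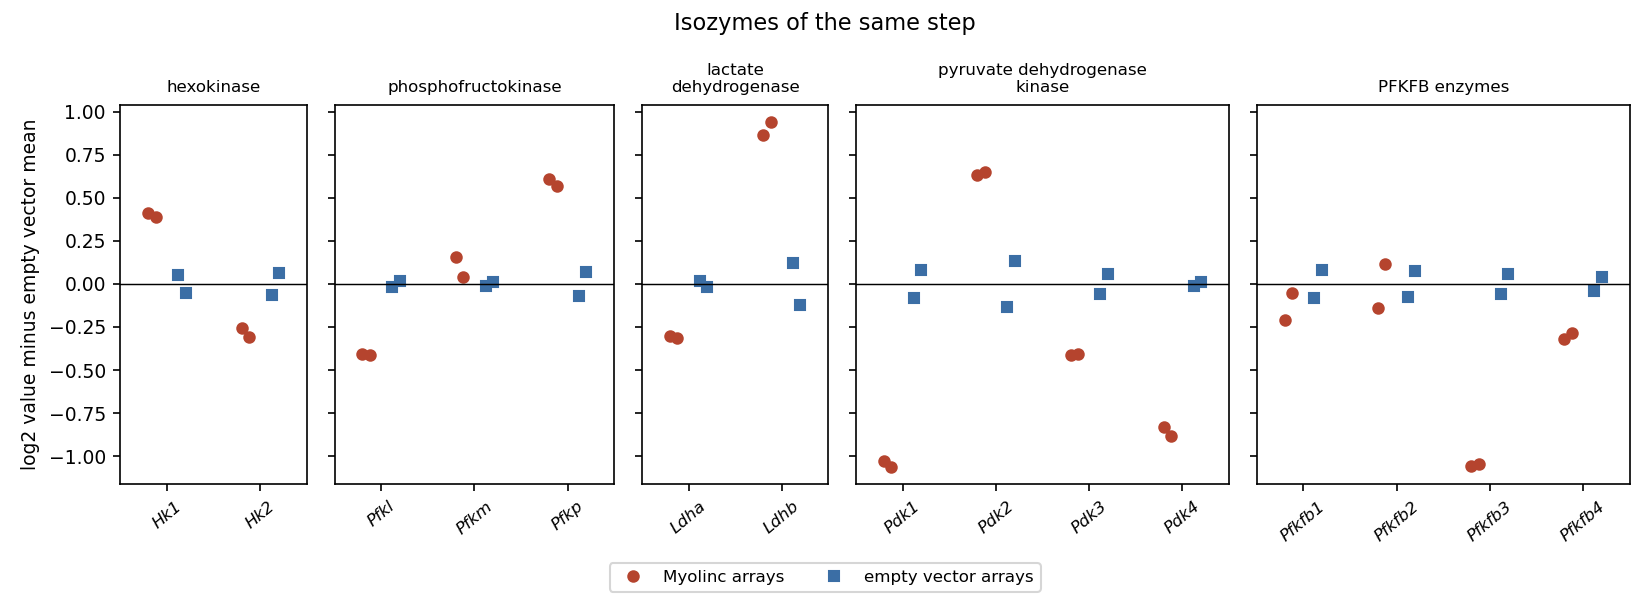
Log2 value minus the empty vector mean (vertical axis) for genes that serve the same step, with Myolinc arrays as circles left of empty vector arrays as squares. Pfkp and Pfkl lie on opposite sides of 0, as do Hk1 and Hk2, Ldhb and Ldha. Pdk2 lies above 0 and Pdk1, Pdk3 and Pdk4 below it, and Pdk1 and Pfkfb3 lie lowest, at changes of -1.05 each.

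From aldolase to pyruvate kinase no gene passed. Gapdh, the oxidising enzyme often used as a loading standard, had 13.49 and 13.53 in the Myolinc line and 13.55 and 13.47 in empty vector cells, a change of -0.0024 with a 95% interval from -0.18 to 0.17. Its probe set number lies among genes of chromosome 11 while RefSeq places it on chromosome 6, and that of Pgk1 lies among genes of chromosome 3 while RefSeq has it on the X chromosome, so the caution given for Bnip3 holds for them too. Eno1 (change -0.03, SE 0.06), Eno3 (-0.02, SE 0.06), Pkm2 (-0.0012, SE 0.06), Aldoa (-0.05, SE 0.06) and Gpi1 (-0.02, SE 0.07) all had overlapping arrays. Tpi1 and Pgk1 had changes of -0.12 each (SE 0.07 and 0.06), and Aldoc had -0.07 (SE 0.12). Pgam1, the broadly expressed phosphoglycerate mutase, had 12.64 and 12.64 in the Myolinc line, against 12.90 and 12.83 in empty vector cells (change -0.22, SE 0.06, adjusted p = 0.127), while its muscle form Pgam2 (0.08, SE 0.06) lay below the median over probe sets. Ldha, which turns pyruvate into lactate and closes the pathway, had 13.47 and 13.45 in the Myolinc line and 13.79 and 13.75 in empty vector cells, with a change of -0.31 (SE 0.06) whose adjusted p of 0.0611 missed the threshold.

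**Figure D3:**
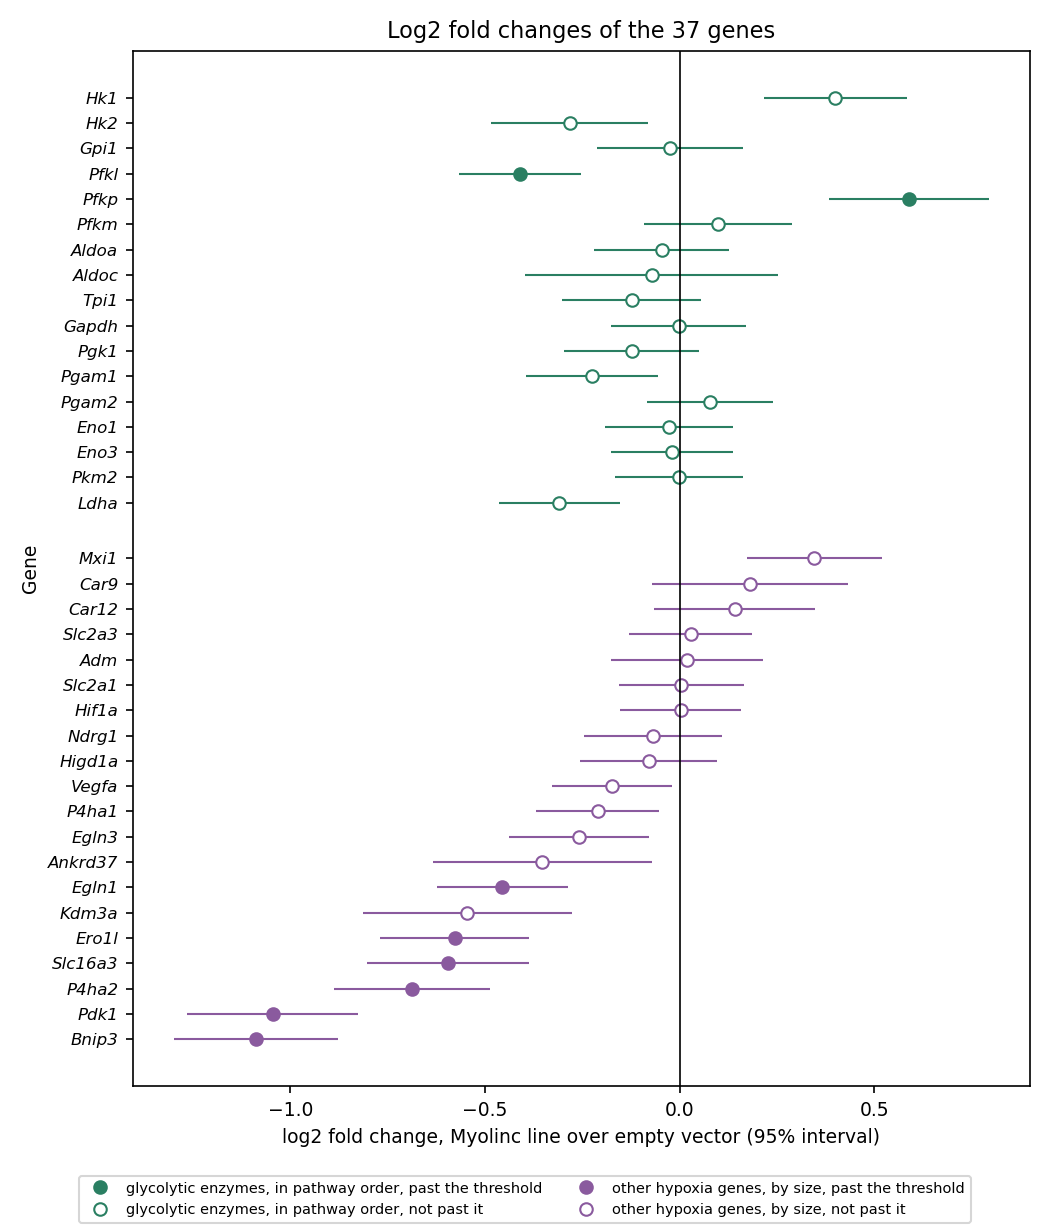
Log2 fold change of the Myolinc line over empty vector (horizontal axis, 95% interval of the limma fit) for the 17 glycolytic enzymes in pathway order and the 20 other hypoxia genes by size. Filled points passed the threshold. The enzymes farthest from 0 are Hk1, Hk2, Pfkl, Pfkp, Pgam1 and Ldha, and the other hypoxia genes reach down to -1.09.

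Side by side, the median log2 fold change was -0.03 over the 17 glycolytic enzymes and -0.19 over the 20 other hypoxia genes, against 0.02 over all genes. On single arrays, relative to the empty vector mean, the other hypoxia genes had medians of -0.20 and -0.18 in the Myolinc line and of -0.01 and 0.01 in empty vector cells, which did not overlap. The enzymes had medians of -0.04 and -0.02 in the Myolinc line, against 0.03 and -0.03 in empty vector cells, which did. All genes had medians of 0.044 and -0.015 in the Myolinc line and of 0.008 and -0.008 in empty vector cells, which overlapped too. The 2 empty vector medians of a set mirror each other by construction, being taken relative to their own mean. The enzymes' median lay 0.16 above that of the other hypoxia genes, and this value is a description with no test, since the genes were chosen. It was 0.28 with lower-level probe sets left out and 0.11 without empty vector replicate 2. Of the other hypoxia genes 13 of 20 had all arrays of the Myolinc line below those of empty vector cells, and of the enzymes 6 of 17, where 26.0% of all genes did. Higher without overlap were 4 of 20 and 4 of 17, where 27.9% of all genes were.

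**Figure D4:**
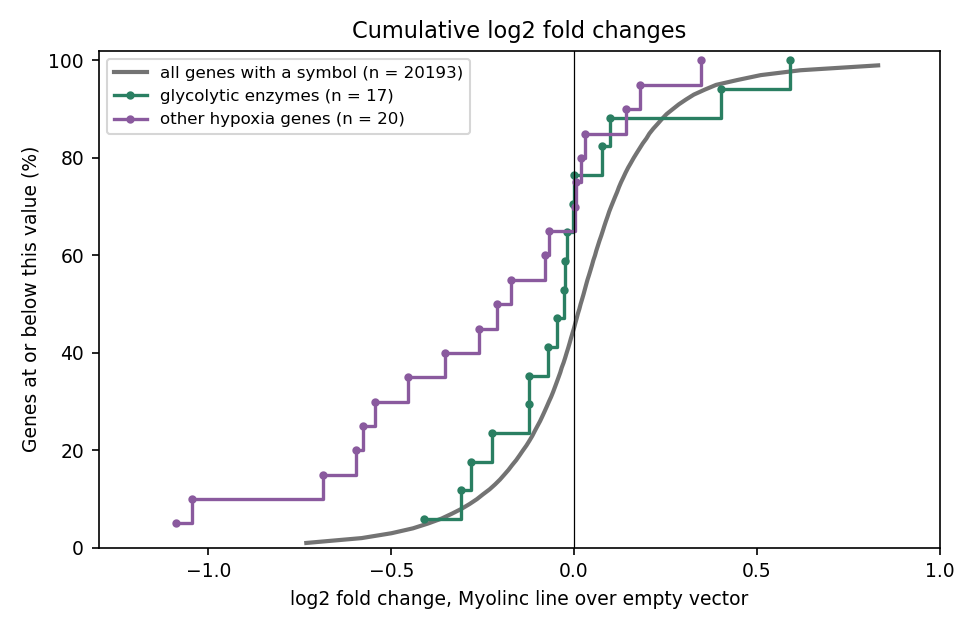
Cumulative share of genes (vertical axis, %) at or below a log2 fold change (horizontal axis) for the 17 glycolytic enzymes, the 20 other hypoxia genes and all 20193 genes, the last drawn between its 1st and 99th percentile. The curve of the other hypoxia genes lies left of that of all genes over its lower part, and the enzymes' median of -0.03 lies near that of all genes, 0.02.

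The wider pathway was read from 5 further lists that hold none of the 37 genes. Of 23 measured genes of glucose handling, 1 fell and 1 rose, a share near that of all genes, of which 7.93% passed in either direction. Pfkfb3, whose product makes the fructose 2,6-bisphosphate that activates phosphofructokinase and which is itself a HIF target, had 7.49 and 7.50 in the Myolinc line and 8.49 and 8.60 in empty vector cells (change -1.05, SE 0.07, adjusted p = 0.0133 in limma). Ldhb, the lactate dehydrogenase subunit of oxidative tissues, had 7.81 and 7.88 in the Myolinc line, against 7.07 and 6.82 in empty vector cells (change 0.90, SE 0.11, adjusted p = 0.029 in limma). Its probe set number also lies away from genes of its own chromosome.

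Of 12 genes that govern the entry of pyruvate into mitochondria, 1 fell and 1 rose, where 3.96% of all genes fell and 3.97% rose. Pdk4, the kinase of the same enzyme that responds to fasting, fell by 0.86 on the log2 scale (SE 0.06, adjusted p = 0.0149 in limma), and Pdp1, the phosphatase that undoes what these kinases do, rose by 0.39 (SE 0.06, adjusted p = 0.0453 in limma). Pdk2 (0.64, SE 0.11) and Pdk3 (-0.41, SE 0.07) each had an adjusted p of 0.0504 and did not pass. With adjustment over genes with a symbol both passed (adjusted p = 0.0425 and 0.0426 in limma). The counts then became 2 of 12 that fell and 2 that rose, against 4.65% and 4.61% of genes. Of 9 glycogen genes 0 passed in limma, with 3 at an unadjusted p under 0.05, which 26.7% of all genes had.

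Of 15 genes of the HIF machinery 0 passed in limma, with 6 at an unadjusted p under 0.05, against 26.7% of all genes. Of the 15, Arnt, the partner of the alpha subunits, had a change of 0.11 (SE 0.06), Vhl, the ligase subunit, one of -0.07 (SE 0.06) and Egln2 (PHD1) one of -0.21 (SE 0.06). Epas1, which encodes HIF-2α, had 0.12 (SE 0.10) and lay below the median over probe sets on all arrays. Hif1an, the asparagine hydroxylase of HIF, had -0.02 (SE 0.06). The lowest change of the 15 was that of Ep300, -0.32 (SE 0.06), and the highest that of Tceb1, 0.23 (SE 0.06).

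Of 48 further genes described as HIF targets, 9 fell and 7 rose, against 3.96% and 3.97% of all genes. By the smallest adjusted p, Hmox1, heme oxygenase (-1.02, SE 0.06), Tfrc, the transferrin receptor (-0.97, SE 0.06), and Edn1, endothelin-1 (-2.69, SE 0.20), fell, and Stc2, stanniocalcin-2 (0.82, SE 0.06), and Insig2, a brake on sterol synthesis (0.75, SE 0.06), rose, with adjusted p from 0.0112 to 0.0176. The median over the 48 genes was -0.0060.

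The cells carried the markers of their line on all arrays. Myod1 (11.57 ± 0.03 in the Myolinc line and 11.51 ± 0.05 in empty vector cells, SD, n = 2 each) and Des (13.05 ± 0.01 in the Myolinc line and 12.72 ± 0.03 in empty vector cells) lay well above the median over probe sets. Of 8 myoblast markers 2, Itga7 and Cdh15, rose, where 3.97% of all genes rose. Pax7 lay near that median with overlapping arrays, and its change of -0.21 (SE 0.14) was the 1 negative change among the 8. Of the 6 measured myotube markers Tnnt3 rose, and Myog, Myh3 and Ckm lay below the median over probe sets on all arrays. Tmem8c had a change of 0.48 (SE 0.08), which did not pass. All 5 adipocyte and all 5 endothelial markers lay below that median, as did 4 of 5 macrophage markers, the exception being Cd68, which fell (change -0.46), and 3 of 5 epithelial ones. Krt14, a keratin, fell as well, with 6.57 and 6.53 in the Myolinc line and 8.93 and 8.98 in empty vector cells. The part of these markers in the results above was not tested.

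Each call rests on 2 arrays against 2. The calls were lost without empty vector replicate 1, without empty vector replicate 2, with a replicate block and in an ordinary linear model. Each of the 8 genes kept its direction in all 15 settings tried, but most settings could not change it. Those that alter only the variance, the block, the rows fitted, the threshold or the adjustment leave the fold change as it is. Leaving out 1 array could not turn the direction either, since the groups of all 8 genes did not overlap. Bnip3 and Pdk1 alone passed without Myolinc replicate 1 and with control probe sets kept, and Egln1 and Pfkl did not pass without Myolinc replicate 2.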

How the data were processed

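Total RNA of 4 C2C12 cultures was labelled with biotin and hybridised to Affymetrix arrays, per the labels' protocols. The authors deposited log2 expression values. RMA and limma are named, with no version, per the submitters' processing notes. The sources used here do not give the genome build, probe annotation or filters. Further columns hold the authors' own p-value and log2 fold change for each gene, per the file headers.

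The control range, 6612 of the 35556 rows by probe set number, was left out. The other 28944 were fitted with limma 3.58.1 in R 4.3.3 (lmFit and eBayes; residual df 2, prior df 2.18), two-sided, Myolinc line minus empty vector, with Benjamini-Hochberg adjustment over all of them and a threshold of 0.05. Intervals are 95% moderated ones. Array medians lay between 7.24 and 7.35, and the number of arrays limits precision. A probe set stood out of place if RefSeq's chromosome (GRCm38.p6) differed from the commonest among the 15 numbered genes on each side. All 37 genes are named; from the wider lists, up to 5 genes each that passed are named by adjusted p, and the exceptions (Pdk2, Pdk3, the HIF machinery, cell markers) were chosen after their values were seen. The members and lists were chosen with earlier results of these data known. Other settings are given in the closing section. Plots used Python 3.11.15 and matplotlib 3.10.9.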

Additional observations from a re-analysis of the deposited data

How the results depend on the processing

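Among the 37 genes 1 rose and 7 fell, and 20 of the other pathway genes and 1602 of all genes passed. With a trended and robust variance these counts were 3, 14, 41 and 4209, with lower-level probe sets left out 3, 15, 44 and 4196, and with the rows with a gene symbol alone 3, 9, 33 and 2490. With the control range kept they were 0, 2, 7 and 287, and at a threshold of 0.10 they were 3, 9, 34 and 3069. With the replicate number as a block they were 0, 0, 1 and 136. In that limma fit 17 of the 37 genes and 5550 of all genes had an unadjusted p under 0.05. The arrays share only a number in the labels (correlation 0.215 between the replicate differences of the groups), and why the calls were lost was not tested. An ordinary linear model gave 0, 0, 0 and 0, with 16 of the 37 genes, 45 other pathway genes and 4577 genes at an unadjusted p under 0.05. Leaving out 1 array at a time gave 0 to 1 that rose, 0 to 6 that fell, 0 to 16 other pathway genes and 0 to 1468 genes in limma. The 0 came without empty vector replicate 1 and without empty vector replicate 2 (3639 and 3322 genes, and 13 and 14 of the 37, at an unadjusted p under 0.05), where 1 sample stands for its group and is assumed to vary like the other. Further quantile normalization made the number that rose 3, and adjustment over genes with a symbol, added after the data were seen, made it 2. In the settings not named here, each count stayed within 1.5 times.

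The median of the enzymes lay 0.16 above that of the other hypoxia genes. It was 0.28 with lower-level probe sets left out, 0.20 with chromosome medians removed, 0.24 with means and 0.11 to 0.21 with 1 array left out. Leaving out Bnip3, Gapdh and Pgk1, whose probe set numbers are out of place, gave 0.15, and then 6 genes fell; this was added after the data were seen.

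Genes near 0 that passed in no setting changed sign in some. With quantile normalization these were Slc2a3 (-0.0289), Pkm2 (0.0036) and Adm (-0.0340). With arrays centred on their medians they were Slc2a1 (-0.0371), Slc2a3 (-0.0128), Hif1a (-0.0390) and Adm (-0.0217). With chromosome medians removed they were Slc2a1 (-0.0096), Eno3 (0.0133), Hif1a (-0.0269) and Adm (-0.0061). With 1 array left out, log2 fold changes ranged from -0.0702 to 0.0204 for Gpi1, from -0.2063 to 0.0626 for Aldoc, from -0.0425 to 0.0378 for Gapdh and from -0.0585 to 0.0040 for Eno1. They ranged from -0.0296 to 0.0271 for Pkm2, from -0.0160 to 0.0252 for Slc2a1, from -0.0098 to 0.0152 for Hif1a and from -0.0441 to 0.0841 for Adm. The cause of these shifts was not tested.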

Other observations

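Of the 37 genes, 18 have in the authors' deposited table a p under 0.05, 15 of them lower and 3 higher in the Myolinc line. Of all genes there, 23.8% have such a p, and 12.3% have one and are lower in the Myolinc line. The header does not say whether that p is adjusted. Over all genes it differed from the unadjusted limma p by at most 0.0292, so these counts are read here as unadjusted.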
